A study of Mus musculus with 12 samples.

Results

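The accessibility of chromatin at 8 genes of pericellular proteolysis was followed in mouse NIH/3T3 fibroblasts with and without mutations of Actg1, the gene of cytoplasmic gamma-actin. The genes encode the matrix metalloproteinases Mmp2, Mmp3 and Mmp14, the proteases Adamts1 and Adamts5, and the inhibitors Timp1, Timp2 and Timp3. Every region that the deposited table lists with 1 of these genes was taken, which gave 19 of 81995 regions. The region whose centre lay nearest the start of transcription is called the start site region of a gene. Mmp3 had 1 region, Mmp2, Adamts1, Adamts5 and Timp2 had 2 each, Timp1 and Timp3 had 3 each and Mmp14 had 4. All 19 passed the filter on low values.

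Open DNA was tagged with the Tn5 transposase and sequenced (ATAC-seq), from 25000 cells per sample with 30 min of transposition at 37 °C. There were 4 groups of 3 libraries. WT cells carried no Actg1 mutation. PTC1 cells carried the Actg1 changes c.280_281insT and, listed beside it, c.[280A>G; 280_281insT], with the stop codon in exon 3. PTC2 cells carried an insertion of 4036 nt after position 1096 of the transcript Actg1-202, with the stop codon in exon 5. LD cells lacked the whole Actg1 locus. All groups share the immortal NIH/3T3 background, and the labels name no separate clones, so p-values measure the spread between these samples, which may not include the spread between clones. The series compares alleles whose mRNA can be degraded with an allele that makes none.

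Matrix metalloproteinases are secreted or membrane-bound zinc proteases that cut collagens, proteoglycans and other matrix proteins, and fibroblasts are a main source of them. Membrane-bound Mmp14 binds Timp2, and this complex captures and activates pro-Mmp2, the gelatinase that digests basement membrane collagen. Mmp3 (stromelysin-1) has a wide range of matrix substrates and activates other secreted proteases. Adamts1 and Adamts5 cleave large proteoglycans such as versican and aggrecan. The TIMPs block the active site of metalloproteinases, and Timp3, which stays bound to the matrix, also inhibits ADAMTS enzymes.

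The 250 bases before the RefSeq start site of the promoter of 4 genes are shown: Mmp3 and Timp1 because their start sites carried the largest falls, and Mmp14 and Adamts1 as promoters with other combinations of the elements searched. RefSeq (build GRCm38.p6, the same primary assembly as mm10) gave a promoter for 6 of the 8 genes. All are written 5′ to 3′ on the strand of the gene. Capitals mark matches to 3 elements on that strand. The element of the AP-1 factors was searched as TGANTCA. The box that places the start of transcription was searched as TATAAA. The element of PEA3 and other ETS factors was searched as AGGAAG. The stretches are chr9:7445572-7445821 on the plus strand for Mmp3, chr14:54431348-54431597 on the plus strand for Mmp14, chr16:85803114-85803363 on the minus strand for Adamts1 and chrX:20869916-20870165 on the plus strand for Timp1.
Mmp3: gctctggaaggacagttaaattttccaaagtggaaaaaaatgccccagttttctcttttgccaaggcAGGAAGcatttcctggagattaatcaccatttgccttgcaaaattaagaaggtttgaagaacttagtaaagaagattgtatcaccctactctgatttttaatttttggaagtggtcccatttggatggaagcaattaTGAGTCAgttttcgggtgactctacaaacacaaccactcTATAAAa
Mmp14: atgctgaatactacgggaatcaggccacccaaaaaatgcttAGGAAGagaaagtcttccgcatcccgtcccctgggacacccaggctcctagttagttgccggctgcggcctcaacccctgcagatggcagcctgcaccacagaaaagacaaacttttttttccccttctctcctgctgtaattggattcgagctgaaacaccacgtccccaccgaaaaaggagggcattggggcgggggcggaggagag
Adamts1: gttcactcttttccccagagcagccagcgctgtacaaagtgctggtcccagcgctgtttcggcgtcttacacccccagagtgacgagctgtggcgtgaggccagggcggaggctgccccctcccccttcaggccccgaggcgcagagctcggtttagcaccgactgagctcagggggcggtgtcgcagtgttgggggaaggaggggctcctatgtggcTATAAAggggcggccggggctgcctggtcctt
Timp1: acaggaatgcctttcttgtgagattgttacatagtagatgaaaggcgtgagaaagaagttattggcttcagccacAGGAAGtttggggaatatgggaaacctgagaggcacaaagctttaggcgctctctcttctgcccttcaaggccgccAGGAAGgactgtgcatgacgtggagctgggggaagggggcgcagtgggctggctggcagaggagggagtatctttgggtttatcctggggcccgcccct

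The Mmp3 promoter held an AP-1 match 46 bases before the start, an AGGAAG match at 183 bases and a TATAAA match at 7 bases. Searched on both strands, AP-1 matches occurred in 6.75% of 32851 promoters of this length, TATAAA in 12.4% and AGGAAG in 29.5%. Of the 6 promoters, the AP-1 letters were found in that of Mmp3 alone. The Adamts1 promoter held TATAAA at 32 bases and 3 matches to the Sp1 letters GGGCGG, which 32.7% of promoters hold. Timp1 had AGGAAG at 175 and 99 bases, GGGCGG at 8 bases and the TEAD letters GGAATG at 247 bases (12.6% of promoters). Mmp14 had AGGAAG at 209 bases and GGGCGG at 19 and 13 bases, Timp2 had GGGCGG at 37 bases, and Timp3 had AGGAAG at 204 bases and GGGCGG at 15 bases. The CArG box of serum response factor, found in 1.47% of promoters, was not matched in any of the 6. All 250 bases lay inside the start site region for Mmp3, Adamts1 and Timp1, and 241 did for Mmp14. A match describes letters only. Binding was not measured.

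The values are read counts scaled per library by the authors, called normalized read counts here. They summed to 31.29 to 34.8 M (mega) per library, and the reads behind them were estimated at 25.02 to 44.97 M. The PTC2 libraries had the highest estimates (35.81 to 44.97 M) and the LD libraries the lowest sums (31.29 to 32.41 M). Depth and group thus cannot be fully separated. Of 11 fibroblast markers 10 had a region, with WT means from 192.7 at Col3a1 and 271.3 at Pdgfra to 5094 at Vim. The 8 markers of other cell types with a region ranged from 17.33 at Cdh5 to 562.7 at the blood cell gene Ptprc. These 2 regions lay 2428 bp (Cdh5) and 4525 bp (Ptprc) from the start site, so they are not promoter values. Ptprc and Cd68 (346) stood above Col3a1 and Pdgfra, and the neural marker Gfap (214.7) above Col3a1. No region was listed with Actg1 (0 of 81995), so the mutations themselves were not checked at the locus.

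In WT cells the start site regions differed widely in openness per length. As normalized read count per kb of region, Timp1 stood highest at 1552, then Adamts1 at 1340, Mmp14 at 1255, Adamts5 at 804.2, Mmp3 at 695.3, Timp3 at 657, Timp2 at 566.6 and Mmp2 at 169.5. The libraries of Adamts1 and Mmp14 overlapped in this order, and so did those of Mmp3 and Timp3, while the other neighbours were separate. In PTC1 the order ended differently: Mmp3 came last at 43.53 per kb and Mmp2, last in the other 3 groups, stood at 490.9 per kb.

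**Figure D1:**
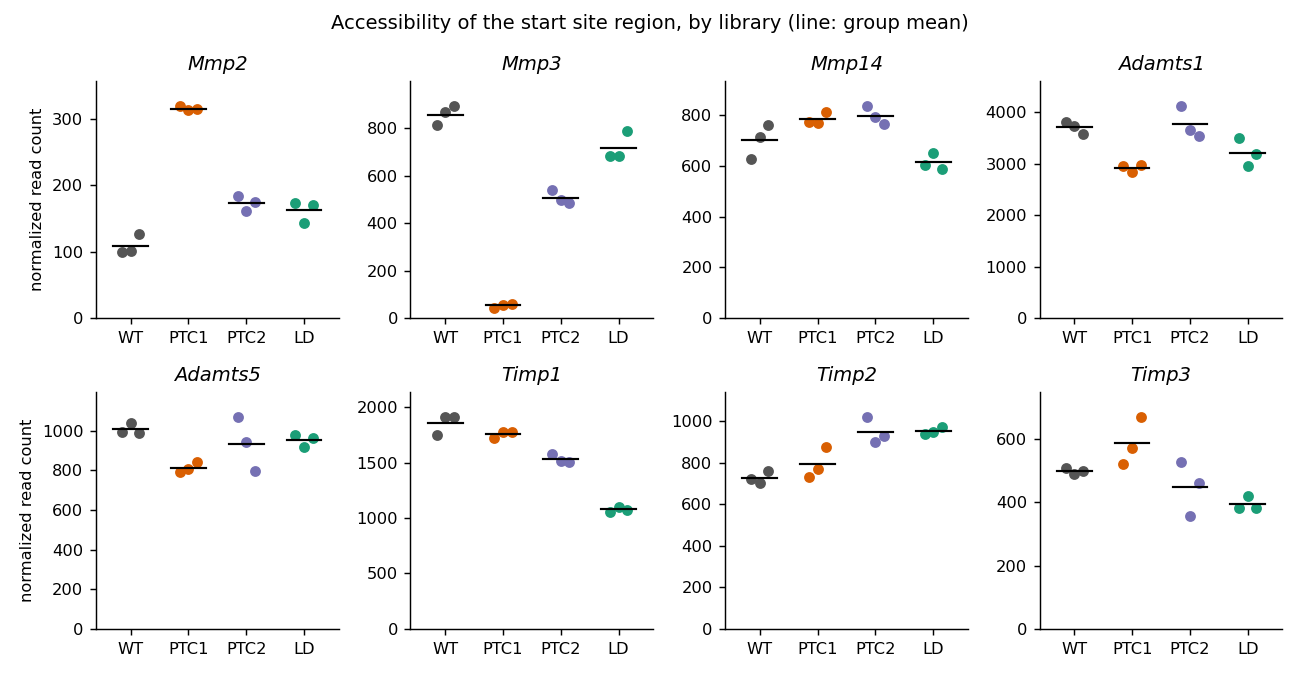
Normalized read count (y axis, from 0) at the start site region of each of the 8 genes in WT, PTC1, PTC2 and LD. Points are the 3 libraries of a group and lines are group means. Mmp3 lay at 45 to 59 in PTC1 against 813 to 892 in WT, Mmp2 at 313 to 319 in PTC1 against 99 to 127 in WT, and Timp1 at 1056 to 1100 in LD against 1744 to 1909 in WT.

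Each mutant was compared with WT by limma, and a region was called where its p, adjusted by the Benjamini-Hochberg method over the 81985 tested, was under 0.05. At the start sites of the 8 genes, PTC1 gave 1 higher (Mmp2) and 3 lower (Mmp3, Adamts1 and Adamts5). Over 12337 genes read the same way, 61.8% were called in PTC1, 33.3% higher and 28.5% lower. PTC2 gave 3 higher (Mmp2, Mmp14 and Timp2) and 2 lower (Mmp3 and Timp1), against 53.8% called over all genes, 37.4% higher and 16.3% lower. LD gave 2 higher (Mmp2 and Timp2) and 4 lower (Mmp3, Adamts1, Timp1 and Timp3), against 46.4%, 16.9% higher and 29.5% lower. The called shares of the 8 genes were not tested against these backgrounds, and nothing is read from them. The median size of the log2 change was 0.27 in PTC1, 0.23 in PTC2 and 0.30 in LD, beside 0.25, 0.21 and 0.19 over all genes. Of the 19 regions PTC1 had 3 higher and 7 lower, beside 61.8% called among all regions tested (30.6% higher and 31.2% lower). PTC2 had 6 higher and 5 lower, beside 58.2% (28.4% and 29.8%). LD had 2 higher and 8 lower, beside 47.4% (22.6% and 24.7%).

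The split of these calls depended on the scaling. In PTC1 loess normalization gave 4 higher and 3 lower start sites, and centring on the chromosome or on the surrounding regions gave 1 and 1. In PTC2 chromosome centring gave 3 and 1, and local centring gave 2 and 0. In LD loess normalization gave 2 and 2, and local centring gave 3 and 2. Calls of Mmp2 stood in all 3 mutants under each of these settings.

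**Figure D2:**
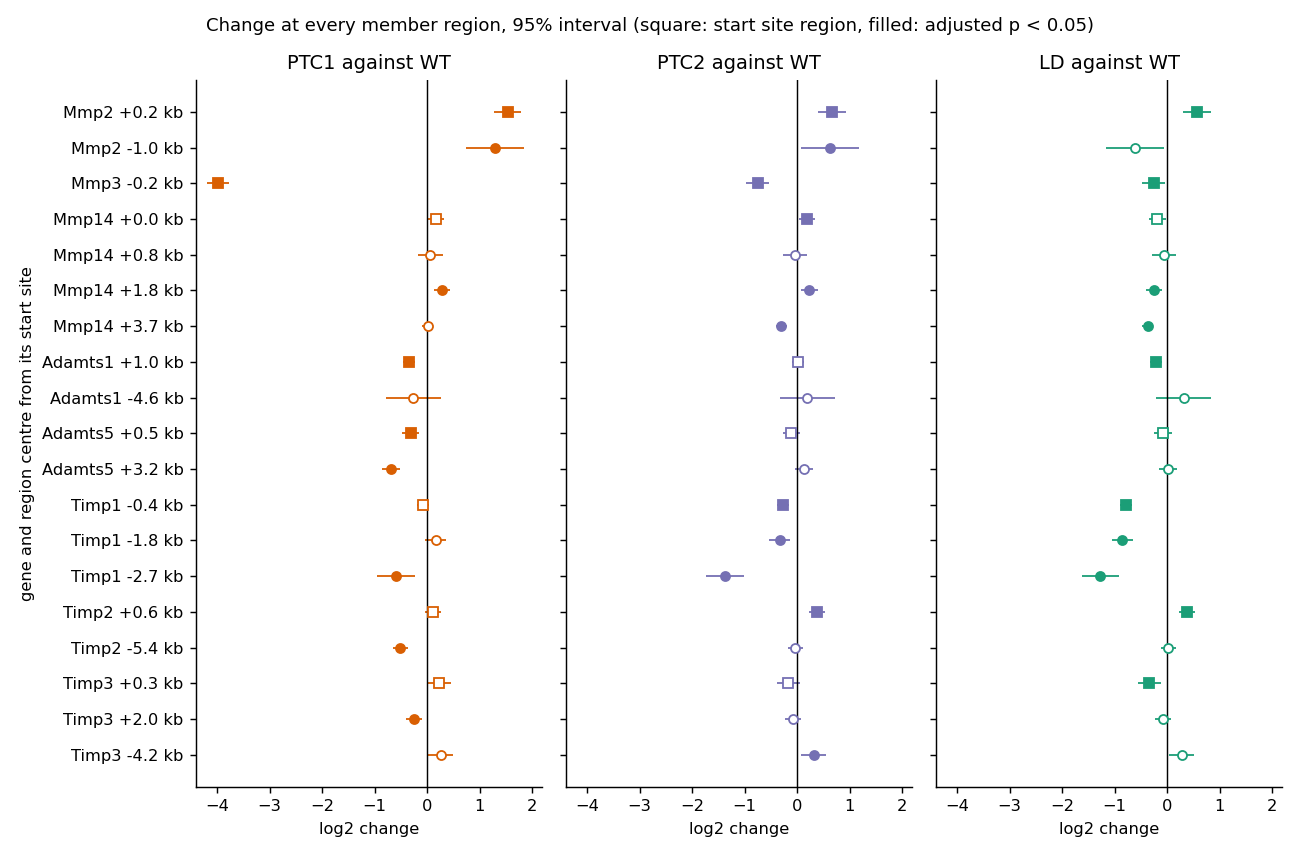
Log2 change against WT (x axis) of all 19 regions in PTC1, PTC2 and LD, with 95% intervals of the limma fit; rows give the gene and the distance of the region centre from the start site in kb. Squares are start site regions and filled symbols passed the test. Mmp3 in PTC1 lies alone at -3.98, and the 3 Timp1 regions in LD lie between -1.27 and -0.78.

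The largest change was the near loss of the Mmp3 start site region in PTC1. The region (chromosome 9, 7445034 to 7446267, mm10) spans the promoter printed above and had values of 813, 867 and 892 in WT. In PTC1 it had 45, 57 and 59, in PTC2 542, 498 and 484, and in LD 682, 683 and 789. The groups were ordered WT, LD, PTC2, PTC1 with no overlap. Mmp3 was 15.8-fold lower in PTC1 (limma adjusted p = 5.83e-23, log2 -3.98 with an SE of 0.104) and 1.69-fold lower in PTC2 (log2 -0.75, adjusted p = 3.41e-07). In LD the fall was small (log2 -0.26, adjusted p = 0.0414). The range of the 4 group means, 3.98 on the log2 scale, exceeded that of 98.5% of start site regions, whose median range was 0.49. The LD call of Mmp3 ended without WT replicate 2 (-0.25), WT replicate 3 (-0.23), LD replicate 1 (-0.22) or LD replicate 2 (-0.22), and under loess normalization (-0.23). Local centring left the PTC1 change of Mmp3 at -2.55 and ended its calls in PTC2 (-0.21, adjusted p = 0.157) and LD (-0.14).

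Mmp3 sits in a cluster of metalloproteinase genes on chromosome 9, and the 4 neighbours named here were also lower in PTC1. In PTC2 Mmp13 and Mmp10 alone of the 4 were called lower, and in LD 0 of the 4 were called. Mmp13 (collagenase 3) had a mean of 490.7 (WT), 122.7 (PTC1), 187 (PTC2) and 533 (LD), with log2 changes of -2.00 in PTC1 and -1.39 in PTC2. Mmp10 (stromelysin-2) had 189, 29.67, 56 and 190, with changes of -2.78 in PTC1 and -1.75 in PTC2. In LD they read 0.11 and 0.01. Mmp27 was read at a region 1420 bp from its start. Its mean went from 444 to 183 in PTC1 (log2 -1.27) and stood at 474 in PTC2 (0.10) and 439 in LD (-0.01). Mmp8 (neutrophil collagenase), read at a region 3959 bp from its start, had 86 in WT, 35 in PTC1 (log2 -1.29) and 72.33 in PTC2 (-0.25, limma adjusted p = 0.281). Local centring ended the PTC1 calls of Mmp13 (-0.19) and Mmp8 (-0.35).

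**Figure D3:**
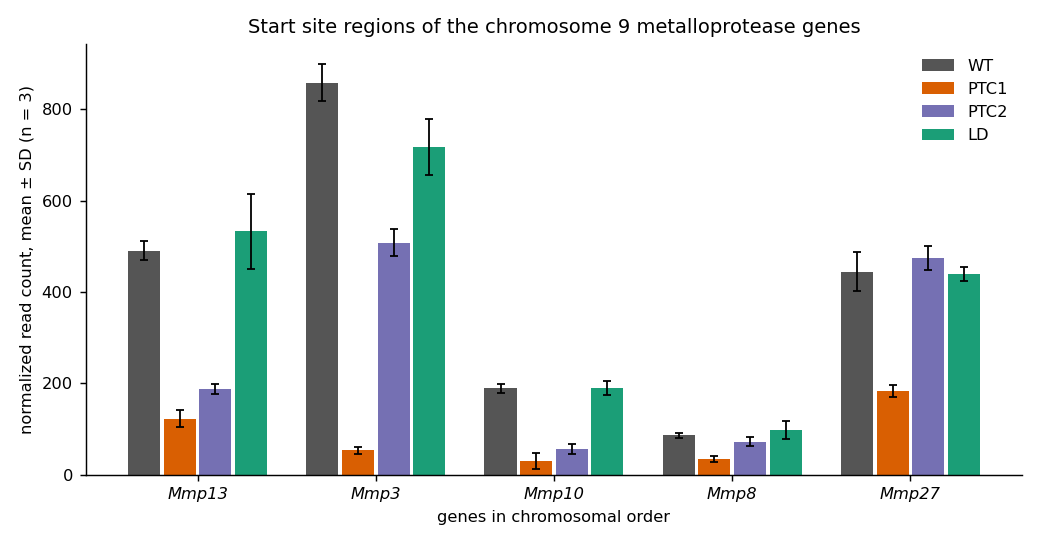
Mean normalized read count (y axis, from 0) at the start site regions of 5 metalloproteinase genes of chromosome 9, drawn in chromosomal order, with bars for WT, PTC1, PTC2 and LD and error bars of 1 SD (n = 3). The regions of Mmp27 and Mmp8 have centres 1420 and 3959 bp from the start. The PTC1 bar is the lowest for each gene, at 53.67 for Mmp3 and 29.67 for Mmp10, and the LD bars of Mmp13 and Mmp10 stand at 533 and 190 beside 490.7 and 189 in WT.

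Between the genes Dcun1d5 and Tmem123, bounds chosen after the values were seen, 23 other regions surround Mmp3. In PTC1 19 of them were lower and 0 higher, with a median log2 change of -2.27, where 31.2% of all regions tested were lower and 30.6% higher. In PTC2 14 were lower and 1 higher (median -0.98), where 29.8% and 28.4% of all regions were. In LD 3 were lower and 5 higher (median 0.05), where 24.7% and 22.6% were. Since the bounds follow the pattern, these counts describe the stretch and test nothing. At the bounds, Dcun1d5 had means of 1584 (WT), 1433 (PTC1), 1696 (PTC2) and 1431 (LD), and Tmem123 had 2666, 2400, 2937 and 2579. In these bulk libraries, fewer cells with an open region and less opening per cell cannot be told apart. The limma fit made no correction for DNA copy number, and the part of copy number in any change was not tested.

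Of the 8 genes, the gelatinase gene Mmp2 alone was called higher at its start site in all 3 mutants. Its region (chromosome 8, 92827142 to 92827785) had 99, 101 and 127 in WT, 319, 313 and 315 in PTC1, 184, 161 and 175 in PTC2, and 174, 143 and 170 in LD. Every mutant library exceeded every WT library, PTC1 stood apart at the top, and PTC2 and LD overlapped. Mmp2 rose 2.9-fold in PTC1 (limma adjusted p = 2.28e-11, log2 1.53 with an SE of 0.129), 1.59-fold in PTC2 (adjusted p = 5.63e-05) and 1.49-fold in LD (adjusted p = 0.000541). Local centring left 0.95, 0.47 and 0.59 on the log2 scale.

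A smaller Mmp2 region 953 bp upstream had 26, 28 and 23 in WT, 59, 63 and 71 in PTC1, 35, 38 and 49 in PTC2, and 19, 11 and 21 in LD. Here the LD libraries lay below all WT libraries, unlike at the start site. The upstream region rose in PTC1 (log2 1.29, limma adjusted p = 0.000134). In PTC2 its change of 0.63 (adjusted p = 0.0444) lost the call without any 1 of the WT libraries, PTC2 replicate 2 or PTC2 replicate 3 (0.50 to 0.70). In LD the change was -0.61 (adjusted p = 0.0623). At this region the lowest library rested on an estimated 8.8 reads.

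Mmp14, the membrane-bound activator of pro-Mmp2, changed little at its start site. The region (chromosome 14, 54431357 to 54431916) had 629, 716 and 760 in WT, 772, 770 and 815 in PTC1, 835, 794 and 767 in PTC2, and 604, 653 and 590 in LD. Both premature stop groups lay above all WT libraries, and LD overlapped WT. The log2 change was 0.19 in PTC2 (limma adjusted p = 0.0371), 0.17 in PTC1 (adjusted p = 0.0633) and -0.19 in LD (adjusted p = 0.0503). The PTC2 call of Mmp14 ended without WT replicate 1 (0.11), WT replicate 2 (0.21), PTC2 replicate 1 (0.16) or PTC2 replicate 2 (0.19). Mmp14 was called in PTC1 without WT replicate 3 (0.23) and in LD without WT replicate 1 (-0.26) or LD replicate 2 (-0.23).

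Inside the Mmp14 gene the 3 other regions did not move together. The region 1794 bp downstream of the start had 691, 742 and 808 in WT, 904, 898 and 920 in PTC1, 905, 881 and 850 in PTC2, and 669, 649 and 575 in LD. It rose in PTC1 (0.28) and PTC2 (0.24) and fell in LD (-0.24), in the direction of the start site values. The PTC2 call there ended without WT replicate 1 (0.18), and the LD call without WT replicate 3 (-0.19) or LD replicate 3 (-0.18), and local centring ended all 3 calls. The region 3667 bp downstream, the most open of the 4, had 2306 ± 69.9 in WT (SD, n = 3), then 2327 ± 84.2 (PTC1), 1870 ± 71.6 (PTC2) and 1786 ± 29.1 (LD). It fell in PTC2 (log2 -0.30) and LD (-0.37) and read 0.01 in PTC1, so that PTC2 moved down here and up at the 1794 bp region. The region at 831 bp had log2 changes of -0.06 to 0.06 and was not called in any mutant.

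Adamts1 and Adamts5, neighbouring genes on chromosome 16, were both lower in PTC1. The wide Adamts1 region (85800719 to 85803489) had 3819, 3736 and 3577 in WT, 2953, 2848 and 2984 in PTC1, 4117, 3668 and 3550 in PTC2, and 3494, 2966 and 3188 in LD. PTC1 and LD lay below every WT library, and PTC2 overlapped WT. Adamts1 fell in PTC1 (log2 -0.34, limma adjusted p = 5.74e-06) and LD (-0.21, adjusted p = 0.00299). It read 0.02 in PTC2 (95% interval -0.09 to 0.14). The LD call of Adamts1 ended under loess normalization (-0.03) and the change was -0.48 after local centring. A weak region 4584 bp upstream of Adamts1 had means of 44 (WT), 36.33 (PTC1), 53.33 (PTC2) and 54.67 (LD) and was not called.

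The Adamts5 start site region (85900691 to 85901942) had 995, 1036 and 987 in WT, 789, 806 and 843 in PTC1, 1068, 943 and 794 in PTC2, and 980, 918 and 962 in LD. PTC1 was separate from WT and LD, while the PTC2 libraries spread over the whole range. Adamts5 fell in PTC1 (log2 -0.31, limma adjusted p = 0.00135) and read -0.12 in PTC2 and -0.08 in LD. Without PTC2 replicate 1 the PTC2 change of Adamts5 was called (-0.22, adjusted p = 0.0204). A second region, 3240 bp into the gene, had 585, 545 and 536 in WT, 315, 353 and 368 in PTC1, 637, 617 and 582 in PTC2, and 552, 585 and 556 in LD. PTC1 alone lay low, and the fall (log2 -0.69, adjusted p = 3.67e-08) was larger than at the start site.

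The regions around both ADAMTS genes had a negative median change in PTC1 too. Of 43 regions within 500 kb of Adamts1, 17 were called lower and 3 higher in PTC1, where 31.2% and 30.6% of all regions tested were. Their median log2 change was -0.38. The window around Adamts5 had the same median, but it overlaps that of Adamts1 and is not a second observation. Local centring turned the PTC1 change of Adamts1 to 0.11 and that of Adamts5 to 0.15, and chromosome centring turned them to 0.05 and 0.08, all 4 without a call. The fall at the 3240 bp region of Adamts5 became -0.27 after local centring and -0.29 after chromosome centring, and both kept the call.

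Timp1, a secreted inhibitor of most metalloproteinases, was lower in LD and, to a lesser degree, in PTC2. Its start site region (chromosome X, 20869176 to 20870370) had 1744, 1908 and 1909 in WT, 1717, 1772 and 1775 in PTC1, 1574, 1515 and 1501 in PTC2, and 1056, 1100 and 1074 in LD. PTC1 overlapped WT, PTC2 lay below both and LD stood apart at the bottom. Timp1 was 1.72-fold lower in LD (log2 -0.78, SE 0.0571, limma adjusted p = 2.59e-12), and it fell in PTC2 (-0.28, adjusted p = 0.000139). In PTC1 the change was -0.08 (95% interval -0.19 to 0.04).

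The upstream regions of Timp1 were low in LD as well. The region 1817 bp upstream had 360, 392 and 377 in WT, 433, 435 and 401 in PTC1, 304, 305 and 288 in PTC2, and 190, 214 and 220 in LD. It fell in LD (-0.85) and PTC2 (-0.33) and read 0.17 in PTC1 (limma adjusted p = 0.134). The region 2681 bp upstream had 150, 149 and 149 in WT, 87, 107 and 103 in PTC1, 48, 60 and 64 in PTC2, and 55, 59 and 71 in LD. Here all 3 mutants lay below WT, with log2 changes of -0.59, -1.38 and -1.27.

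The fall of Timp1 in LD was shared by its surroundings on chromosome X. Of 31 regions within 500 kb, 26 were called lower and 1 higher in LD, where 24.7% and 22.6% of all regions tested were. Their median log2 change was -0.97, lower than the change of Timp1 itself. Local centring turned the LD change of Timp1 to 0.16 (limma adjusted p = 0.0469), and chromosome centring left -0.28. In PTC2 local centring gave 0.02 and chromosome centring 0.04 for Timp1, both without a call. At the upstream regions in LD local centring gave 0.10 at 1817 bp and -0.33 at 2681 bp, neither with a call. The PTC2 call at 1817 bp ended under chromosome centring (-0.014) and local centring (-0.035).

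**Figure D4:**
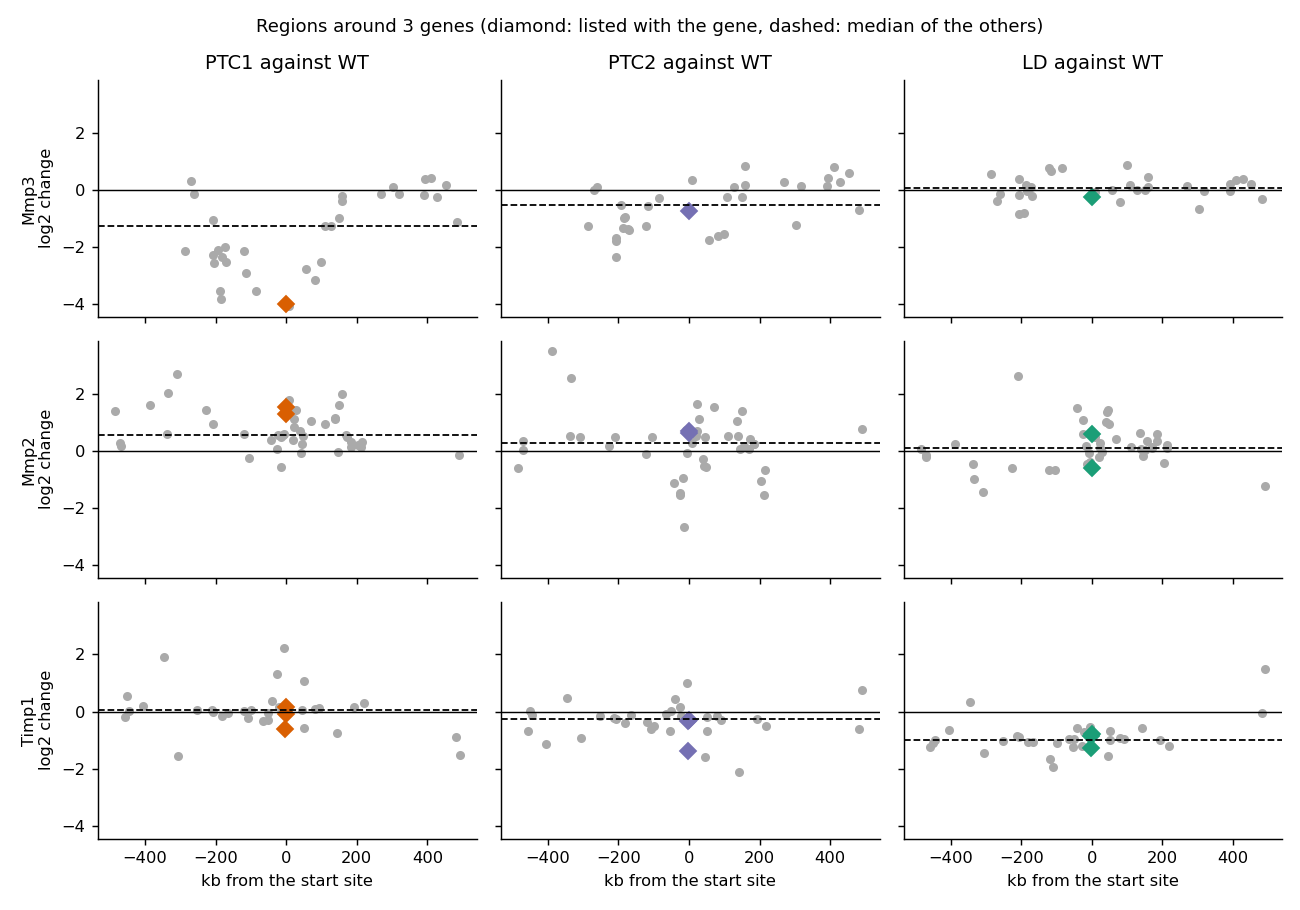
Log2 change against WT (y axis) of regions within 500 kb of the start sites of Mmp3, Mmp2 and Timp1 (x axis, distance in kb) in PTC1, PTC2 and LD. Diamonds are regions listed with the gene and dashed lines the median of the others, which lay at -1.29 around Mmp3 in PTC1, 0.56 around Mmp2 in PTC1 and -0.97 around Timp1 in LD.

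Timp2, the inhibitor that also links Mmp14 to pro-Mmp2, was higher in PTC2 and LD. Its start site region (chromosome 11, 118354449 to 118355735) had 722, 702 and 762 in WT, 732, 772 and 876 in PTC1, 1020, 901 and 930 in PTC2, and 937, 948 and 973 in LD. PTC2 and LD overlapped each other and lay above every WT and PTC1 library. Timp2 rose by 0.38 on the log2 scale in PTC2 (limma adjusted p = 6.61e-05) and 0.39 in LD (adjusted p = 8.63e-05), and read 0.12 in PTC1 (95% interval -0.03 to 0.27). The region 5370 bp upstream behaved otherwise, with 1127, 1080 and 1116 in WT, 842, 807 and 691 in PTC1, 1103, 1110 and 1036 in PTC2, and 1211, 1106 and 1066 in LD. Only the PTC1 libraries were low there, and the fall was called (-0.51, adjusted p = 5.82e-07). Local centring left Timp2 at 0.33 in both PTC2 and LD.

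Timp3, the matrix-bound inhibitor of ADAMTS enzymes, was lower at its start site in LD. The region (chromosome 10, 86300299 to 86301057) had 509, 488 and 497 in WT, 521, 572 and 668 in PTC1, 527, 357 and 460 in PTC2, and 380, 420 and 382 in LD. LD lay below and PTC1 above all WT libraries, and the PTC2 libraries were widely spread. Timp3 fell in LD (log2 -0.34, limma adjusted p = 0.011) and read 0.23 in PTC1 (adjusted p = 0.0664) and -0.17 in PTC2 (adjusted p = 0.179). Timp3 was called in PTC1 without PTC1 replicate 1 (0.31), and in PTC2 without PTC2 replicate 1 (-0.30).

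Inside Timp3, the region 1961 bp downstream had 1361 ± 68.0 in WT (SD, n = 3), then 1151 ± 55.6 (PTC1), 1286 ± 104 (PTC2) and 1296 ± 145 (LD). It fell in PTC1 (log2 -0.24, limma adjusted p = 0.00602), where the start site region stood above WT. The region 4182 bp upstream had 206 ± 20.8 (WT), 246.7 ± 27.6 (PTC1), 255.7 ± 11.5 (PTC2) and 249.7 ± 24.8 (LD). Its change of 0.31 in PTC2 was called (adjusted p = 0.0228) and lost the call without WT replicate 1 (0.27), WT replicate 3 (0.28) or PTC2 replicate 3 (0.28).

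The mean of PTC1 and PTC2 was then compared with LD, which sets alleles with a premature stop against the allele without the locus. At the start sites 4 of the 8 genes were higher (Mmp2, Mmp14, Timp1 and Timp3) and 1 was lower (Mmp3), where 67.0% of genes were called, 45.2% higher and 21.7% lower. Mmp3 was 4.32-fold lower than in LD (log2 -2.11, limma adjusted p = 3.52e-18). Timp1 was higher by 0.61, Mmp2 by 0.53, Timp3 by 0.37 and Mmp14 by 0.36 on the log2 scale. Over all 19 regions 8 were higher and 3 lower, beside 64.8% called among all regions tested (32.1% higher and 32.6% lower). For Mmp14 all 6 premature stop libraries (767 to 835) lay above the 3 LD libraries (590 to 653). The same held for Timp1, at 1501 to 1775 against 1056 to 1100. At Mmp3, Mmp2 and Timp3 the mean joined unlike alleles. Mmp3 averaged 53.67 (PTC1) and 508 (PTC2) beside 718 (LD), so PTC1 carried most of its fall. Mmp2 averaged 315.7 (PTC1) and 173.3 (PTC2) beside 162.3 (LD), and PTC2 libraries overlapped LD. Timp3 libraries of PTC2 (357 to 527) also overlapped LD (380 to 420), while those of PTC1 (521 to 668) lay above.

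The comparison with LD depended on the scaling for several genes. Loess normalization called all 8, with 4 higher and 4 lower, scaling to the same median gave 5 and 1, chromosome centring 5 and 2, and local centring 3 and 2. Adamts1 read 0.05 and was not called. It was called higher under scaling to the same median (0.17, limma adjusted p = 0.014), chromosome centring (0.30, 5.75e-06) and local centring (0.48, 6e-07). Under loess normalization it was called lower (-0.16, adjusted p = 0.000209). Local centring turned Timp1 to -0.22, called with an adjusted p of 0.00145, and ended the calls of Mmp2 (0.12) and Mmp14 (0.04). Timp2 read -0.14 (limma adjusted p = 0.0644) and was called without PTC1 replicate 3 (-0.17) or PTC2 replicate 1 (-0.16), and Adamts5 read -0.13 and was called without PTC2 replicate 1 (-0.18).

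PTC1 and PTC2 both carry a premature stop but differed at most of these genes. Between them 7 of the 8 start sites were called, 3 higher in PTC1 (Mmp2, Timp1 and Timp3) and 4 lower (Mmp3, Adamts1, Adamts5 and Timp2), where 54.3% of genes were called, 21.1% higher and 33.2% lower. The difference, PTC1 minus PTC2, was -3.23 for Mmp3 (limma adjusted p = 4.83e-21), 0.86 for Mmp2, 0.40 for Timp3, -0.36 for Adamts1, -0.26 for Timp2, 0.20 for Timp1 and -0.19 for Adamts5. Over all 19 regions 7 were higher and 6 lower, beside 62.5% (31.6% and 30.9%). Mmp14 differed by -0.02 (95% interval -0.18 to 0.14). The Adamts5 call ended without PTC1 replicate 1 (-0.17), PTC1 replicate 2 (-0.19), PTC2 replicate 1 (-0.09) or PTC2 replicate 2 (-0.18), with -0.30 without PTC2 replicate 3, and the Timp3 difference was 0.25 without PTC2 replicate 2. Chromosome and local centring turned the differences of Adamts1 (0.09 and 0.23) and Adamts5 (0.27 and 0.33), and local centring that of Timp1 (-0.16). The turned difference was called at Adamts1 under local centring (limma adjusted p = 0.00948) and at Adamts5 under both (0.00458 and 0.00199). That of Timp1 was called too (0.0427), and that of Adamts1 under chromosome centring was not (0.166). The call of Timp1 as higher in PTC1 ended under scaling to the same median (0.10, adjusted p = 0.178) and chromosome centring (0.03, adjusted p = 0.686). The call of Adamts5 as lower ended under loess normalization (-0.12, adjusted p = 0.141) and with only the groups compared in the limma fit (adjusted p = 0.0546). Scaling to the same median gave 2 higher and 4 lower, loess normalization 3 and 3, chromosome centring 3 and 2, and local centring 4 and 3.

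The start sites were also set beside their surroundings. The 33 regions within 500 kb of Mmp3 had a median change of -1.29 in PTC1, and 1 of them lay below the change of Mmp3 (-3.98). Of the 42 neighbours of Mmp2 in PTC1, 26 were called higher and 0 lower, where 30.6% and 31.2% of all regions tested were. Their median was 0.56, and 6 of them lay above the change of Mmp2 (1.53). For Timp1 in LD and both ADAMTS genes in PTC1 the change was close to the median around them. Timp3 in LD (-0.34) and Timp2 in PTC2 and LD (0.38 and 0.39) had neighbour medians of 0.00, 0.13 and 0.10.

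**Figure D5:**
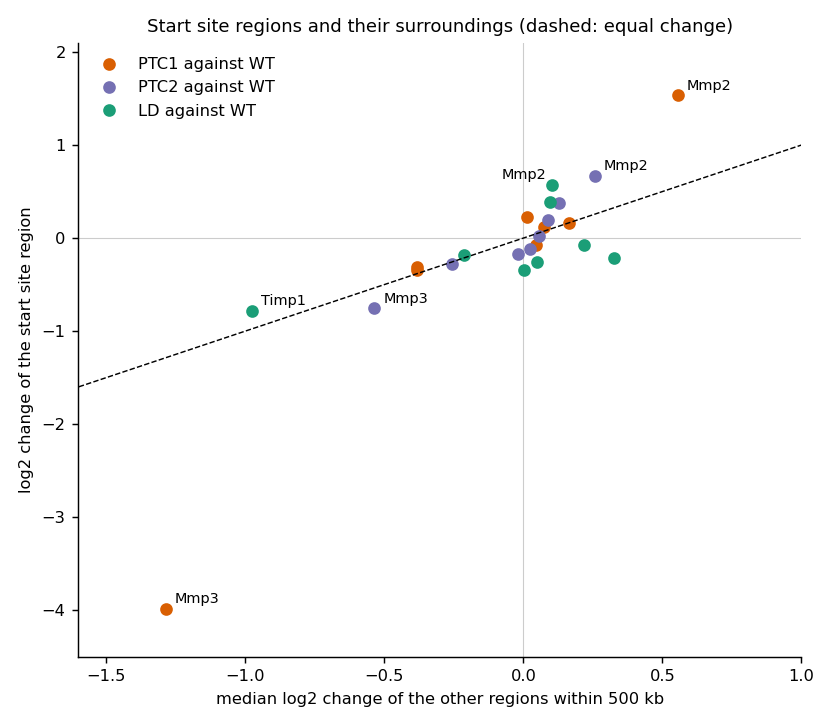
Log2 change against WT of each start site region (y axis) against the median change of the other regions within 500 kb (x axis), for the 8 genes in PTC1, PTC2 and LD. The dashed line marks equal change; Mmp3 in PTC1 lies far under it (-3.98 at a median of -1.29), Mmp2 above it, and Timp1 in LD near it (-0.78 at -0.97).

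Other genes of matrix proteolysis were read at their start site regions from a list of 74 genes, of which 52 had a region. In PTC1 7 rose and 26 fell, with a median log2 change of -0.19 beside 0.03 over all genes, of which 33.3% rose and 28.5% fell. In PTC2 19 rose and 12 fell (median 0.03 beside 0.10), where 37.4% and 16.3% of all genes did. In LD 10 rose and 12 fell (median -0.01 beside -0.05), where 16.9% and 29.5% did. With 61.8% (PTC1), 53.8% (PTC2) and 46.4% (LD) of all genes called in either direction, nothing particular to the list or to the groups within it is read from the counts. The split moved with the scaling: loess normalization gave 11 and 23 in PTC1 and 15 and 5 in LD, and scaling to the same median gave 21 and 8 in PTC2 and 9 and 16 in LD. Against LD the premature stop mean had 13 higher and 24 lower, with 16 and 15 under scaling to the same median and 8 and 26 under loess normalization. PTC1 against PTC2 had 5 higher and 26 lower, with 13 and 27 under loess normalization and 9 and 21 under local centring.

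Among the 12 other metalloproteinase genes with a region, 0 rose and 8 fell in PTC1, 3 rose and 5 fell in PTC2, and 1 rose and 3 fell in LD, beside 61.8%, 53.8% and 46.4% of all genes called. The median log2 changes were -0.60, -0.24 and -0.0035, beside 0.03, 0.10 and -0.05 over all genes. The chromosome 9 genes described above account for part of these falls. Mmp15, a membrane-type metalloproteinase on chromosome 8, rose in LD from a mean of 227 to 805 (log2 1.83, limma adjusted p = 1.38e-13). Its mean was 130.7 in PTC1, where it fell (log2 -0.79), and 356.3 in PTC2, where it rose (0.65) and local centring ended the call (0.28). Mmp19 fell in LD from 222.7 to 129.7 (log2 -0.77) and rose in PTC2 (0.29). That PTC2 call of Mmp19 ended under local centring (0.20) and without WT replicate 1 (0.20), PTC2 replicate 1 (0.26) or PTC2 replicate 3 (0.25).

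Of 16 other ADAMTS and ADAMTS-like genes, 3 rose and 6 fell in PTC1, 9 rose and 2 fell in PTC2, and 4 rose and 1 fell in LD, beside the same shares of all genes. The median log2 changes were -0.12, 0.19 and 0.09. Adamts2, which trims the amino end of procollagen, had means of 356.7 (WT), 60.33 (PTC1), 858.3 (PTC2) and 640.3 (LD). It fell in PTC1 (log2 -2.53) and rose in PTC2 (1.28) and LD (0.86). Adamts7 fell in PTC1 from 1289 to 696 (log2 -0.89) and in LD (-0.27, with -0.16 and no call under loess normalization). Adamts18, read at a region 2775 bp from its start, rose in all 3 mutants. It went from 33.67 in WT to 76.33 in PTC1 (log2 1.17), 85.33 in PTC2 and 130.3 in LD (1.96). Local centring ended its PTC2 call (0.46).

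Of 7 ADAM sheddase genes, 1 rose and 5 fell in PTC1, 2 rose and 2 fell in PTC2, and 0 rose and 3 fell in LD. Of all genes, 61.8% were called in PTC1, 53.8% in PTC2 and 46.4% in LD. Adam8 fell in all 3 mutants, from 310.7 in WT to 155.7 in PTC1, 184 in PTC2 and 167.3 in LD. Adam12 fell in PTC1 (log2 -1.43). In the plasminogen system, which activates metalloproteinases, each mutant had 1 call among 3 genes, beside the same shares of all genes. The call was the urokinase gene Plau in PTC1 (-0.56), its receptor gene Plaur in PTC2 (-0.40) and the tissue activator gene Plat in LD (-0.46).

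Among 11 other proteases and activators 2 rose and 4 fell in PTC1, 4 rose and 1 fell in PTC2, and 5 rose and 3 fell in LD. The shares called over all genes were 61.8%, 53.8% and 46.4%. Htra1, a secreted serine protease gene, rose in all 3, from 126 in WT to 370 in PTC1, 276.7 in PTC2 and 401.7 in LD. Pcsk6, a proprotein convertase gene, fell in PTC1 (log2 -2.09) and rose in PTC2 (1.05) and LD (0.60), the LD call ending without WT replicate 3 (0.35). Of 3 other inhibitor genes, 1 rose and 2 fell in PTC1, 1 rose and 1 fell in PTC2, and 0 rose and 1 fell in LD. The same shares of all genes stand beside these counts. Serpine2, read at a region 2422 bp from its start, fell in PTC1 (log2 -0.39) and LD (-0.88) and rose in PTC2 (0.49). Local centring ended its LD call (-0.13) and its PTC2 call (0.34). Its PTC1 call ended under loess normalization (-0.28) and without WT replicate 2 (-0.33), WT replicate 3 (-0.30) or PTC1 replicate 2 (-0.34).

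Mmp3 had the widest range of group means, so the genes whose start site regions followed it most closely over the 12 libraries were listed. Of 12068 genes compared, Shroom2 on chromosome X had the highest Pearson r (0.997), with means of 1020 (WT), 67.33 (PTC1), 701.7 (PTC2) and 879.7 (LD). Tmie on chromosome 9 (r = 0.992) had 3399, 1213, 3029 and 3202, and Macf1 on chromosome 4 (r = 0.992) had 859, 240.3, 637 and 700.3. The libraries of a group share their genotype, so these r values rest mainly on the low PTC1 group and are a description.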

How the data were processed

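ATAC-seq values of 12 NIH/3T3 libraries were analysed. The deposited table gives a score per region and library, a read count that the authors scaled per library and rounded, as its values show. Reads per library were estimated from the missing and doubled whole numbers. The share of that pattern left unexplained ran from 0.0377 (PTC2 replicate 2) to 0.846 (WT replicate 3), so the estimates are unequally firm. The deposited fraction of a region inside the gene body was used as a description only. The build mm10 and the tools DESeq2 1.30.1, Picard 2.25.5, STAR 2.7.10a and Trimmomatic 0.39 are named per the submitters' processing notes. How regions were called, and whether reads were shifted for Tn5, is not given in the sources used here.

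Because the values are scaled, no count test was used. limma 3.58.1 (R 4.3.3) was run on log2(value + 1), with a mean per group over all 12 libraries and an empirical Bayes trend. A mean of at least 5 was required of a region (81985 tested, 10 left out), and those with a Benjamini-Hochberg adjusted p under 0.05 were called. Fold changes are on the log2(value + 1) scale and understate the change of low regions. Simulated libraries with known changes were used to test the fit. The changes were set at few regions and in PTC1 alone, so the simulation does not cover changes as wide as those seen here. Each library's depth limits precision through counting error, which the estimated reads of a region describe.

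All regions of the 8 genes were named. A gene of the inhibitor list is not reported here and is left out of the list counts. In each list, up to 3 genes per comparison with the lowest adjusted p were eligible. Mmp8 was named against PTC2 by this rule and is given against WT beside its neighbours, and the stretch bounds were chosen after the values were seen. Where a named gene was also called in another mutant, that value is given too. The members and lists were chosen with earlier results of these data known.

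Alternatives were scaling to the same median, cyclic loess, a pseudocount of 10, no low filter, centring on the chromosome or on the median of other regions within 500 kb (at least 5), only the groups compared, a replicate block, leaving out each library, and the region with the highest mean. Figures were drawn with matplotlib 3.10.9.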

Additional observations from a re-analysis of the deposited data

Results flagged for a closer look

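The effects of the PTC1 and PTC2 alleles against WT differed at 7 of the 8 start site regions when the difference itself was tested by the limma contrast of the groups. The difference, PTC1 minus PTC2 on the log2 scale, was -3.23 at Mmp3, 0.86 at Mmp2, 0.40 at Timp3, -0.36 at Adamts1, -0.26 at Timp2, 0.20 at Timp1 and -0.19 at Adamts5. At Mmp3 both alleles were below WT and PTC1 far more so, and at Mmp2 both were above WT. Chromosome and local centring turned the differences at Adamts1 and Adamts5, and local centring that at Timp1. Apart from Adamts1 under chromosome centring, these turned differences were called in the opposite direction. The Timp1 call was also lost under scaling to the same median and chromosome centring, and the Adamts5 call under loess normalization, with only the groups compared and without any 1 of 4 libraries. Over all genes 54.3% of start site regions were called in this contrast.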

How the results depend on the processing

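Of the counts of called start sites, the 4 in PTC1 became 7 under loess normalization and 2 under either centring, the 5 in PTC2 became 2 under local centring, and the 5 against LD became 8 under loess normalization.

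These changes turned sign. Under chromosome centring PTC1 gave 0.050 at Adamts1, 0.083 at Adamts5, 0.070 at Timp1 and -0.022 at Timp2, and PTC2 gave -0.043 at Adamts1, 0.041 at Timp1 and -0.079 at Adam9. Against LD that setting gave 0.12 at Adamts5, and PTC1 against PTC2 gave 0.093 at Adamts1 and 0.27 at Adamts5. Under local centring PTC1 gave 0.11 at Adamts1, 0.15 at Adamts5, 0.26 at Adam10 and 0.090 at Cst3, PTC2 gave -0.12 at Adamts1, 0.019 at Timp1, -0.086 at Adam9 and 0.23 at Cst3, and LD gave 0.034 at Mmp14, 0.16 at Timp1 and 0.096 at the 1817 bp region of Timp1. Against LD local centring gave 0.19 at Adamts5, -0.22 at Timp1, -0.10 at the 3667 bp region of Mmp14, 0.012 at the 3240 bp region of Adamts5 and -0.052 at the 1817 bp region of Timp1. PTC1 against PTC2 gave 0.23 at Adamts1, 0.33 at Adamts5 and -0.16 at Timp1. Under loess normalization Adamts1 read -0.069 in PTC2 and -0.16 against LD, Adamts5 0.021 in LD, and Mmp14 0.036 between PTC1 and PTC2. Some turned values were called. Under local centring these were Adam10 in PTC1, Cst3 in PTC2, Timp1 in LD, and Adamts5 and Timp1 against LD. Between PTC1 and PTC2 local centring called Adamts1, Adamts5 and Timp1, and chromosome centring called Adamts5. Loess normalization called Adamts1 against LD. The cause was not tested.

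Reading each gene at its region with the highest mean gave, in PTC1, -0.51 at Timp2 and -0.24 at Timp3, and in PTC2 -0.30 at Mmp14 and -0.033 at Timp2. It gave -0.087 at Timp3 against LD, and 0.32 at Mmp14 and -0.16 at Timp3 between PTC1 and PTC2. With 1 library left out, Adamts1 ranged from -0.040 to 0.067 in PTC2 and from -0.0065 to 0.11 against LD, and Mmp14 from -0.052 to 0.0092 between PTC1 and PTC2.

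Libraries with the same replicate number deviated together only weakly (r of -0.0044 to 0.045 across regions), so the numbers were not taken as pairs. Among the changes followed at single regions, a replicate block altered 1 call, Mmp14 in LD (-0.19, limma adjusted p = 0.0492). It also moved the counts of the list of matrix proteolysis genes. Lower calls went from 26 to 27 in PTC1, from 12 to 13 in PTC2 and in LD, and from 24 to 25 against LD. Higher calls went from 5 to 6 between PTC1 and PTC2. Scaling to the same median moved the median of all regions from 0.02 to 0.115 in PTC2 and from -0.0044 to 0.115 against LD. Depth limits the weakest Mmp2 region most: its lowest library rests on an estimated 8.8 reads.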
